A study of Mus musculus with 6 samples.

Results

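Laptm4a encodes a membrane protein of lysosomes and late endosomes. In AGO2 CLASH libraries of wild-type mouse cells it was the target gene with the most miRNA hybrids, and in cells with mutant Dicer nearly none were left. CLASH stands for cross-linking, ligation and sequencing of hybrids. It ligates a miRNA held in the protein AGO2 to the piece of mRNA under it, so that 1 read names both. The libraries came from P19 cells, a mouse embryonic carcinoma line. There were 3 biological replicates of WT cells, genotype Dicer (+/+), and 3 of HM cells, genotype Dicer (HM/-). HM cells carry a missense mutation in the RNase IIIb domain on one Dicer1 allele and a truncation of the other allele made first, so both alleles differ from WT, and HM is a clonal line. The members are every hybrid read assigned to Laptm4a, which numbered 116 of 15680 reads in the table, or 1 of 3200 target genes. The gene was chosen because its hybrids were lost in HM cells, so that loss is described here without a test.

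A miRNA hairpin has 2 arms, and Dicer frees the 5p-miRNA with its RNase IIIb domain and the 3p-miRNA with its RNase IIIa domain. In AGO2, bases 2 to 8 of the miRNA (the seed) usually make the first pairs with a site in the 3′ UTR, and pairs further along the miRNA can add to them. Laptm4a is a multi-pass protein that binds ubiquitin ligases of the Nedd4 family and is needed for synthesis of the glycolipid globotriaosylceramide.

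The sequences of the 10 miRNAs joined to Laptm4a divide them into seed groups. All 10 matched the RefSeq table of mature miRNAs (GRCm38.p6). The leading pair, miR-291a-5p (chr7:3218932-3218953, plus strand) and miR-291b-5p (chr7:3219494-3219515, plus strand), belongs to the miR-290 cluster of early embryonic cells. The next 6 share the seed of miR-17 and come from the paralogous clusters on chromosomes 14, X and 5. The last 2 are 3p-miRNAs. The mature sequences are shown to compare the seeds, with bases 2 to 8 in capitals.
miR-291a-5p: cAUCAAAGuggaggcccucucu
miR-291b-5p: gAUCAAAGuggaggcccucucc
miR-93-5p: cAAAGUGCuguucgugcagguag
miR-20b-5p: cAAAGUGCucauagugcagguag
miR-106b-5p: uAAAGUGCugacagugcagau
miR-106a-5p: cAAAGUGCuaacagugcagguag
miR-17-5p: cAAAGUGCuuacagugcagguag
miR-20a-5p: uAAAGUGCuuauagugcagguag
miR-130a-3p: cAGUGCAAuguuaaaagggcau
miR-376b-3p: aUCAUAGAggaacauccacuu

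How these miRNAs met their targets carries the main observation, and sequences are shown as deposited, 5′ to 3′. In the first line, capitals mark the bases of miR-291a-5p that RNAduplex pairs with a Laptm4a fragment of WT library 3. The next pair of lines gives a fragment of Znf146, its second target by WT reads, and miR-291a-5p, with the bases paired between them in capitals. The last pair of lines is 1 stretch of Laptm4a seen with 2 miRNAs, with capitals for the match to the seed of each miRNA.
miR-291a-5p on Laptm4a: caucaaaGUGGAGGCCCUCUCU
Znf146 with miR-291a-5p, WT library 2: ggAGGGAGGGCTTaaGCTTTGATatgagcg
miR-291a-5p on Znf146: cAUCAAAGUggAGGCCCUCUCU
Laptm4a with miR-17-5p, WT library 2: cttttttaactttGCACTTTctttg
Laptm4a with miR-130a-3p, HM library 2: cttttttaactTTGCACTttctttg

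On Laptm4a, bases 1 to 7 of miR-291a-5p stayed in lower case and the pairs ran from base 8 to its end. On Znf146, both the seed and the 3′ part of the same miRNA were in capitals. These fragments lie in the 3′ UTR of their genes as mapped by the study. The build used for that mapping was not given in the sources used here, so no position of Laptm4a is printed.

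The first comparison asked how many hybrids Laptm4a had in each library. Laptm4a had 34, 45 and 36 hybrid reads in the 3 WT replicates and 0, 1 and 0 in the 3 HM replicates, each in the order of their numbers. Every WT library was high and every HM library was at or next to 0, with no overlap. The library totals were between 1621 and 5341 hybrid reads, and the library with the single HM read was the deepest. Per 10000 hybrid reads of the library, Laptm4a stood at 176.3, 193.1 and 222.1 in WT (mean 197 ± 23.2, SD, n = 3). In HM the mean was 0.624 ± 1.08 per 10000 (SD, n = 3). With 0 reads seen, the depth leaves room for 3, or 18.1 per 10000 in HM library 1 and 10.7 in HM library 3. Summed over libraries, the WT level was 191.6 times that of HM, with an exact 95% counting interval from 33.7 to 7633. Such intervals and floors cover counting error only and take reads as independent. Laptm4a was chosen by this loss, so the interval describes the counts and is no test of it.

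**Figure D1:**
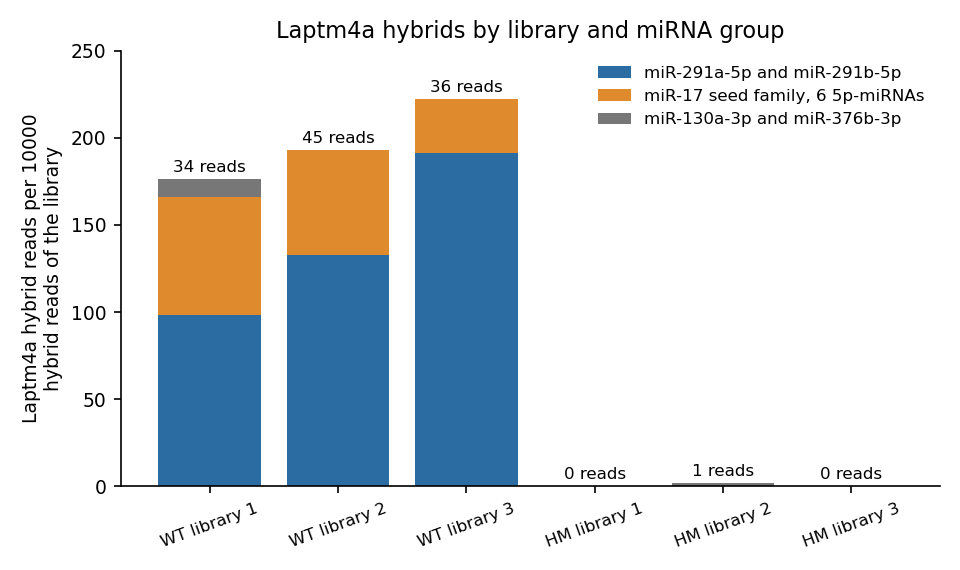
Laptm4a hybrid reads per 10000 hybrid reads of each library (bars, linear axis), divided by miRNA group, with the number of Laptm4a reads above each bar. The WT bars stand at 176.3, 193.1 and 222.1 and are mostly miR-291a-5p, while the HM bars hold 0, 1 and 0 reads.

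Laptm4a ranked 1 of 1953 genes with a read in WT. Within WT libraries 1 to 3 its rank was 3, 1 and 1. Fjx1 followed with 101 WT reads, Rabggtb with 84 and Atp7a with 76, against 115 for Laptm4a. A hybrid count depends on how much Laptm4a mRNA a cell holds and on how often AGO2 sits on it. The mRNA was not measured in these libraries, so fewer transcripts and fewer AGO2 contacts per transcript cannot be told apart.

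The second comparison asked which miRNAs held Laptm4a in WT. For miR-291a-5p there were 19, 30 and 31 Laptm4a reads in the WT replicates and 0 in each HM replicate. Together with miR-291b-5p, which had 1 read, it made 55.9%, 68.9% and 86.1% of the Laptm4a hybrids of the WT libraries (mean 70.3% ± 15.2, SD, n = 3). The share was lowest in WT library 1 and highest in WT library 3.

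The 6 miRNAs with the miR-17 seed had 13, 14 and 5 Laptm4a reads over the WT replicates (27.7% ± 12.5, SD, n = 3) and 0 in each HM library. miR-93-5p had 4, 6 and 2 of them. miR-20b-5p had 1, 6 and 1. These were the only 2 of the 6 seen on Laptm4a in every WT library. miR-106b-5p had 2, 0 and 2 reads, miR-106a-5p 3, 0 and 0, miR-17-5p 2, 1 and 0, and miR-20a-5p 1, 1 and 0. Counts this small give no order among those 4.

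The 3p-miRNAs had little of Laptm4a in either genotype. In WT library 1, miR-130a-3p and miR-376b-3p had 1 read each. In HM library 2, miR-130a-3p had the 1 read that was left. miR-130a-3p thus had 1 of its 122 WT reads and 1 of its 246 HM reads on Laptm4a. By arm, 5p-miRNAs held 94.1%, 100% and 100% of the Laptm4a hybrids in WT (98.0% ± 3.40, SD, n = 3), which came to 113 of 115 reads (98.3%, exact 95% interval 93.9 to 99.8). Over all genes and miRNAs with an arm in their name, 54.0% ± 2.24 (SD, n = 3) of WT hybrids were from 5p-miRNAs, and 3.91% ± 0.292 (SD, n = 3) of HM hybrids.

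Most of these reads differed in sequence. Laptm4a had 96 distinct hybrid sequences within libraries, of which 81 had 1 read, and the most repeated had 4. The 80 reads of miR-291a-5p came from 60 distinct sequences. WT libraries shared 6 (1 and 2), 4 (1 and 3) and 7 (2 and 3) Laptm4a sequences. In 94 of the 96 entries the first 18 bases of the miRNA part were those of the RefSeq mature miRNA.

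The third comparison asked how many places on Laptm4a the miRNAs were joined to. Fragments that shared at least 12 identical bases in a row were joined into a site. The leading site held 114 of 115 WT reads (99.0% ± 1.70 per library, SD, n = 3) and the HM read, and the WT read of miR-376b-3p lay apart from it. With 18 shared bases there were 4 sites, and the leading one held 97.1%. The fragments of the leading site fitted a single joined stretch of 59 nt, 66 of 95 entries exactly and 93 within 2 differences.

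Within those 59 nt the seed groups lay on different stretches. Of the 81 reads of miR-291a-5p and miR-291b-5p, 79 held the 7 bases at positions 19 to 25 of the joined fragment, which are part of the stretch paired with miR-291a-5p. Of the 32 reads of the miR-17 seed group, 32 held GCACTTT, the match to their seed, at bases 46 to 52, and 0 held the 7 bases at positions 19 to 25. The 2 stretches lay 20 nt apart. Only 7 reads, all of miR-291a-5p or miR-291b-5p, held both.

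Fragments joined to miR-291a-5p or miR-291b-5p were also longer on Laptm4a. Their median length was 37 nt (24 to 50), while those of the miR-17 seed group had a median of 22 nt (20 to 37). At its other targets, miR-291a-5p was joined to fragments with a median of 28 nt, and over all hybrids the median was 24 nt. Counted apart by these 2 runs of bases, a choice made after seeing the data, the stretch at positions 19 to 25 held 68.8% ± 15.6 (SD, n = 3) of the WT Laptm4a hybrids.

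**Figure D2:**
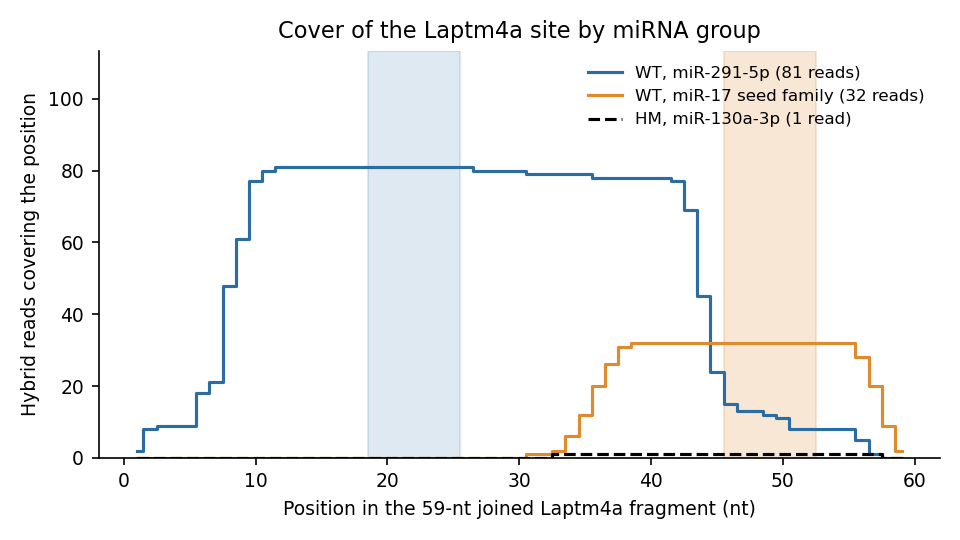
Number of Laptm4a hybrid reads that cover each position of the 59-nt joined fragment, for the WT reads of miR-291a-5p and miR-291b-5p (blue), the WT reads of the miR-17 seed group (orange) and the HM read of miR-130a-3p (dashed), with bases 19 to 25 and 46 to 52 shaded. The 81 blue reads cover the first shaded stretch and the 32 orange reads cover the second. Blue and orange reads overlap between them, and 15 blue reads reach position 46 and 8 reach position 52.

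Both runs of bases were also counted in the fragments of all other genes, reading only the deposited strand. The run at positions 19 to 25 was in 7 of 15564 reads (0.0450%), from 6 genes. GCACTTT was in 11.0% of those reads. TTGCACT, the match to the seed of miR-130a-3p, overlaps GCACTTT by its last 5 letters on Laptm4a and was in 7.13% of them. A run of letters in a fragment is a description and does not show where AGO2 sat.

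The fourth comparison asked how miR-291a-5p pairs with Laptm4a and with its other targets. On Laptm4a, 0 of its 80 reads held CTTTGAT, the match to its seed, and 0 held the 6-base TTTGAT. At its other targets 53 of 135 reads (39.3%) held the 7 bases and 63.7% held the 6. The miR-17 seed group differed from its own other targets the other way, with the 7-base match in 32 of 32 Laptm4a reads and in 44.0% of 2042 reads elsewhere.

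RNAduplex, which finds the pairing of lowest energy between 2 RNAs, placed the pairs of miR-291a-5p with Laptm4a at bases 8 to 22 of the miRNA. Each of these 15 bases was paired in 98.7% to 100% of the 78 reads without an undetermined base, and the median energy was -24.1 kcal/mol (-26.2 to -22.4). Among bases 2 to 8, the median read had 1 pair. From base 13 on it had 10. At the other targets of miR-291a-5p the median energy was -17.0 kcal/mol, with 7 pairs among bases 2 to 8 and 6 from base 13 on. At least 6 seed pairs were found in 69.6% of those 135 reads and in 0 of the 78 Laptm4a reads. At least 7 pairs from base 13 on were found in 42.2% and in 78 of 78.

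**Figure D3:**
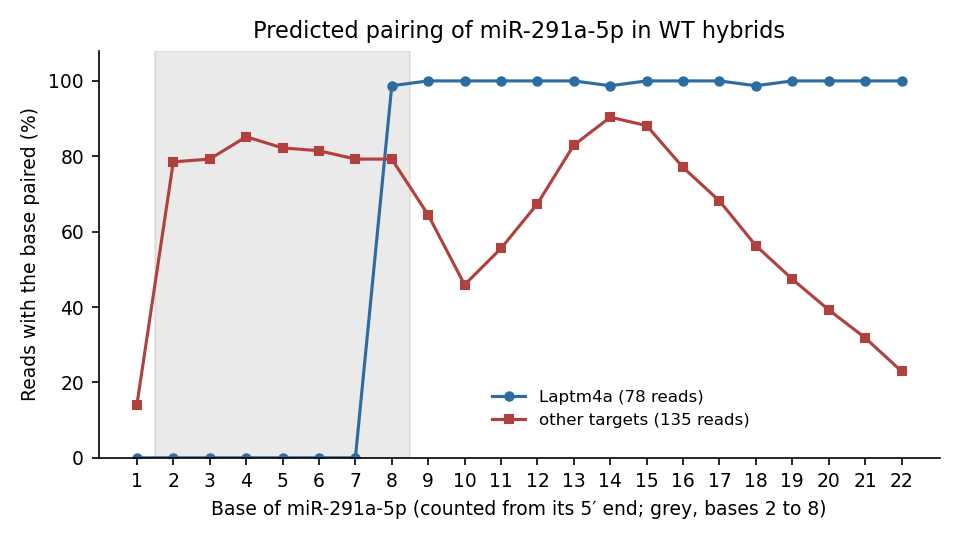
Percentage of WT hybrid reads in which each base of miR-291a-5p was paired by RNAduplex, on Laptm4a (78 reads, blue) and at its other targets (135 reads, red), with bases 2 to 8 in grey. On Laptm4a the pairs begin at base 8 and run to base 22, and at the other targets bases 2 to 8 were paired in most reads.

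The reads at 1 site share a target, so these shares describe 1 place on 1 gene. The table keeps miRNA and gene pairs that TargetScan predicts. The 3′ UTR of Laptm4a was not used here, so whether it holds a seed match to miR-291a-5p outside the joined fragment was not examined. For the miR-17 seed group on Laptm4a, the lowest-energy pairing had a median of only -9.8 kcal/mol and included at least 6 seed pairs in 13 of 31 reads, although each fragment held the seed match.

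Seeds of other miRNAs in the table were also searched for in the joined fragment. A mature sequence was found for 255 of the 298 miRNAs, so the counts below may leave out miRNAs with the same seeds. Among 3p-miRNAs, 3 with the seed AGUGCAA (miR-130a-3p, miR-130b-3p and miR-301a-3p) had 205 hybrid reads in WT and 536 in HM over all genes, of which 1 and 1 were on Laptm4a. miR-19a-3p and miR-19b-3p, with the seed GUGCAAA, had 161 and 718 reads and 0 on Laptm4a. A 6-base match was found for 5 3p-miRNAs with the seed AAGUGCU, from the miR-302 and miR-290 clusters, which had 827 and 2890 reads over all genes and 0 on Laptm4a. Among others of the miR-290 cluster, miR-290a-3p (6 bases) had 0 and 1 reads and miR-291b-3p (7 bases) had 0 and 2, with 0 on Laptm4a. From the same 2 clusters, miR-302a-3p (292 WT reads) and miR-292a-3p (53 WT reads) are not in these counts. Neither was joined to Laptm4a, and a match of their seeds was not examined. The 3p-miRNAs that match these letters were thus abundant in HM hybrids and had 1 HM read on Laptm4a. Pairs that TargetScan does not predict are absent from the table whatever their number.

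The fifth comparison asked what became of the Laptm4a miRNAs at all their other targets, with the reads of Laptm4a removed. This measure did not enter the choice of the gene, although it comes from the same 6 libraries. The miRNAs were taken by their reads on Laptm4a, 115 of 116 of them from WT, so the comparison is not independent of that choice. Reads were compared by the quasi-likelihood test of edgeR with the total of 3p hybrids as library size. Of the 9 Laptm4a miRNAs with at least 10 reads elsewhere, 8 were called lower in HM (adjusted p under 0.05) and 0 higher. Of all 94 miRNAs tested, 43.6% were called lower and 16.0% higher. The 5p-miRNAs of Laptm4a, 7 of 7 of them called lower, were near the share among 5p-miRNAs at large, of which 94.1% were called lower. As a median, the log2 fold change was -6.57 over the 9 and -6.63 over the 34 5p-miRNAs tested.

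miR-291a-5p was joined to other targets in 51, 52 and 32 reads of the WT replicates and in 0, 0 and 0 of the HM replicates. The groups did not overlap. Against 3 reads over the HM libraries, this was at least 156-fold lower in HM (edgeR adjusted p = 1.24e-47; highest over the alternatives 2.77e-06). This miRNA was thus absent from HM hybrids of other genes as well.

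miR-93-5p went from 136, 180 and 120 reads at other targets in the WT replicates to 1, 2 and 0 in HM, a ratio of 503 (exact 95% counting interval 171 to 2447). miR-106b-5p, from the same cluster on chromosome 5, had 128 reads in WT and 0 in HM (at least 148-fold lower). miR-17-5p had 222 and 1. All of these fell (edgeR adjusted p at most 1.30e-45 in the main setting; highest over the alternatives 2.96e-06, for miR-106b-5p).

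Members of the same seed group kept hybrids in HM at other genes. miR-20b-5p kept 17, 55 and 34 reads in the HM replicates against 176, 220 and 190 in WT, and its fitted log2 difference was -4.26 ± 0.16 (SE; edgeR adjusted p = 7.16e-86; highest over the alternatives 1.73e-09). miR-20a-5p had 138 reads in WT and 37 in HM, a log2 fold change of -3.66 ± 0.28 (SE). miR-106a-5p had 372 and 13, a log2 fold change of -6.57 ± 0.25 (SE). In the HM libraries these 3 miRNAs had no read on Laptm4a. In WT, only 1.35% of the reads of miR-20b-5p, 1.43% of miR-20a-5p and 0.80% of miR-106a-5p were on Laptm4a. At such shares few HM reads would fall on it, so their absence says little.

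miR-130a-3p, the miRNA of the HM read, had 121 reads in WT and 245 in HM at other targets. Per 3p hybrid its log2 difference was -0.78 ± 0.20 (SE, edgeR adjusted p = 0.000351). The median on this scale was -0.72 over all miRNAs tested and 0.20 over the 58 3p-miRNAs. It was thus close to the first median and below that of the 3p-miRNAs. Per hybrid of either arm the log2 difference of miR-130a-3p was 0.28, and the median of all miRNAs was then 0.34. With TMM and with DESeq2 it was not called (adjusted p up to 0.253 over the alternatives). Of the 58 3p-miRNAs tested, 15.5% were called lower. miR-376b-3p had 11 and 20 reads and was not called (edgeR adjusted p = 0.155). It belongs to a chromosome 12 cluster. According to the paper, HM cells had silenced a miRNA cluster on that chromosome, a clonal effect on transcription. Yet miR-376b-3p had 4, 12 and 4 reads at other targets in the HM replicates. Whether it is part of the silenced cluster, and how these reads arose, was not tested. miR-291b-5p, with 7 reads in WT and 0 in HM, was below the minimum for the test.

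**Figure D4:**
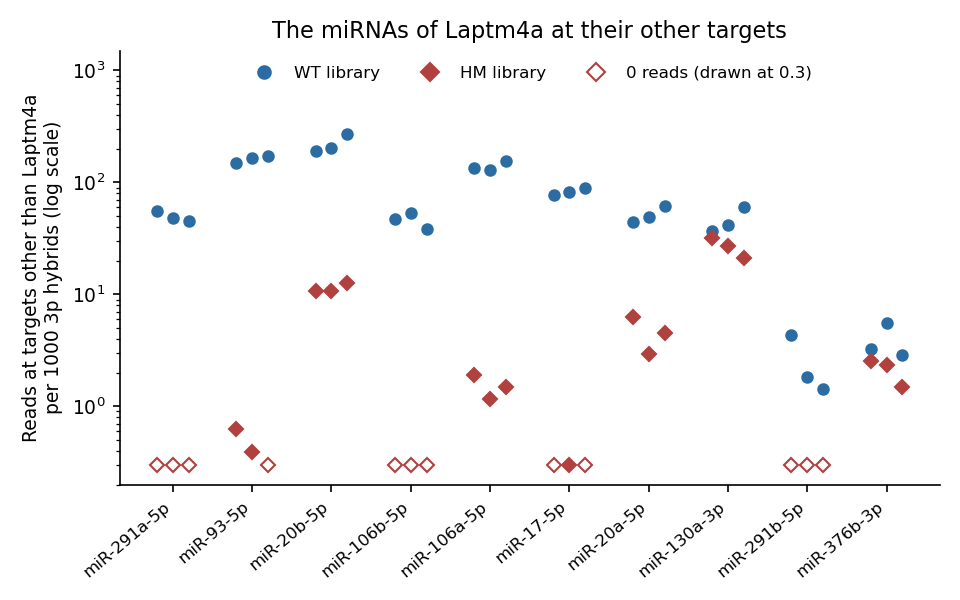
Reads of each Laptm4a miRNA at targets other than Laptm4a, per 1000 3p hybrids of the library (log axis), with 3 WT libraries (blue circles) and 3 HM libraries (red diamonds) for each miRNA; open diamonds are libraries with 0 reads, drawn at 0.3. The 5p-miRNAs lie lower in HM, and of all 34 5p-miRNAs tested 94.1% were called lower (edgeR adjusted p under 0.05). miR-291b-5p had only 7 reads in WT, too few for the test. The WT and HM points of miR-130a-3p and miR-376b-3p lie near each other.

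Laptm4a took up a large part of its leading miRNA's hybrids. Of the 215 WT reads of miR-291a-5p, 80 were on Laptm4a (37.2%, exact 95% interval 30.7 to 44.0). The pair ranked 1 of 3878 miRNA-gene pairs in WT, just above miR-367-3p with Rabggtb (79 reads). Among 23 miRNAs with at least 50 WT reads, no other had so high a share on its first target, and miR-92a-3p with Atp7a came next (31.1%).

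The other 135 WT reads of miR-291a-5p were spread thinly. Of its 92 target genes in WT, Laptm4a included, 70 had 1 read and 19 had 2 to 4. The 3 with 5 or more were Laptm4a, Znf146 and Strap. Znf146, a zinc finger protein, had 7, 5 and 0 reads in the WT replicates. Strap, which takes part in assembly of spliceosomal snRNPs, had 3, 5 and 0. Acsl4, an acyl-CoA synthetase, had 1, 0 and 2, and Max, the partner of Myc, had 1, 1 and 1. In HM these 4 had 0 reads with miR-291a-5p. None of the 4 had more than 5 reads of this miRNA in every WT library, whereas Laptm4a had at least 19.

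Laptm4a was then set beside the other genes that were bound mainly by 5p-miRNAs. In all, 105 genes had at least 10 WT reads. In 24 of them, Laptm4a included, 5p-miRNAs held at least 95% of the WT reads. These 24 had a median of 2 HM reads (0 to 21), and 10 of them had 0 or 1. Their median share of hybrids in HM was 0.0673 times that in WT, compared with 0.660 for the 69 genes between and 1.15 for the 12 genes with at most 5%. Over all 105 genes the median was 0.565. The minimum was set on WT reads alone, which favours genes high in WT and lowers these ratios. For Laptm4a the ratio was 0.00522. No gene of the 105 with an HM read had a lower ratio, and 8 genes, each with at most 18 WT reads, had no HM read. The ratio of HM to WT is the measure that Laptm4a was chosen by, so its place among these genes is a description.

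**Figure D5:**
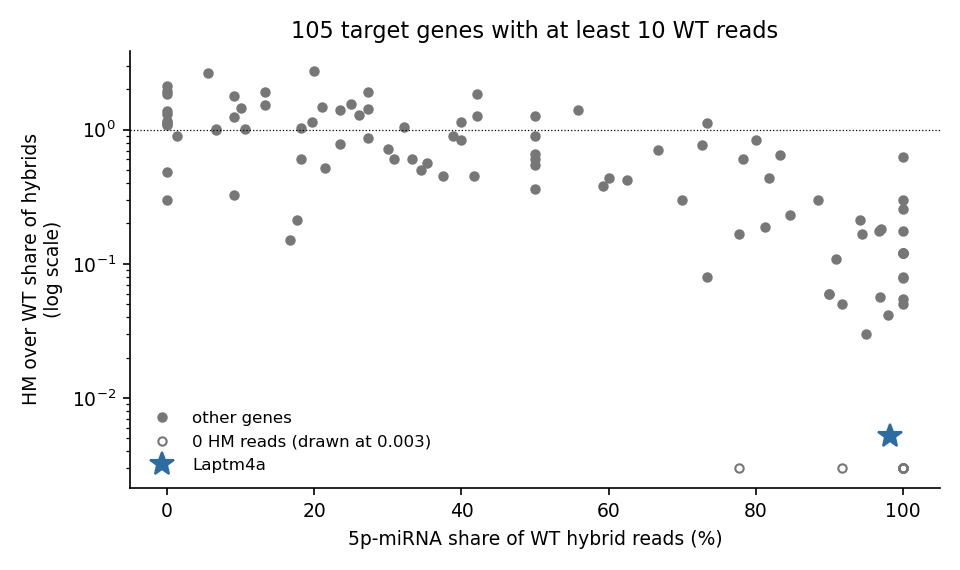
Ratio of the share of hybrids in HM to that in WT (log axis) against the 5p-miRNA share of WT hybrid reads for the 105 genes with at least 10 WT reads, with Laptm4a as a star; open circles are the 8 genes with 0 HM reads, drawn at 0.003. Genes above 95% on the horizontal axis lie mostly below the others, and Laptm4a lies at 0.00522.

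The genes most like Laptm4a in level over the 6 libraries were Rcc2, Capn15, Setd2, Fjx1 and Il17rd, by Pearson correlation of log2 read counts scaled to library totals (r from 0.982 to 0.995, 343 genes compared). These points share libraries and the split between genotypes, and no test was made. Rcc2, a regulator of chromosome condensation and mitosis, went from 5, 9 and 6 reads in WT to 0, 1 and 0 in HM. Capn15, a calpain protease, had 5, 7 and 4 and then 0 in each HM library. Setd2, a histone H3 lysine methyltransferase, had 7, 6 and 5 and then 0. Fjx1 had 35, 45 and 21 in WT and 1, 4 and 2 in HM. Il17rd, a transmembrane inhibitor of FGF signalling, had 12, 11 and 11 and then 2, 5 and 3. None of these 5 genes had a WT read of miR-291a-5p. Capn15 and Setd2 had 16 of 16 and 18 of 18 WT reads from the 6 miRNAs of the miR-17 seed group, and Rcc2 had 0 of 20.

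By the makeup of their WT miRNAs, the genes nearest to Laptm4a were Znf146, Bmpr2, Rest, Epha4 and Serinc1. The Bray-Curtis distance, which is 0 for the same makeup and 1 for none in common, was 0.304 for Znf146 and 0.683 to 0.722 for the other 4, and its median over 104 genes was 0.878. Znf146 had 12 of its 13 WT reads from miR-291a-5p and 0 from the miR-17 seed group. Epha4, an ephrin receptor, had 44 of 46 from the seed group and 0 from miR-291a-5p. Bmpr2, a BMP receptor, and Rest, a transcriptional repressor, each had 1 read of miR-291a-5p beside 5 and 6 of the seed group. Serinc1, a serine incorporator, had 21 of 26 from the seed group.

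The last comparison asked whether other genes of the lysosome and late endosome lost hybrids, using a list of 117 genes other than Laptm4a. Only 27 had a read, and 5 had the 10 reads needed for the test. The paralogs Laptm4b and Laptm5 had 0 reads in the 6 libraries. Of the 5 tested, 1 was called lower in HM and 0 higher (edgeR, adjusted p under 0.05), and 2 had an unadjusted p under 0.05. Over all 344 genes tested, 10.8% were called lower and 5.81% higher. As a median, the log2 fold change was 0.062 over the 5 and 0.27 over all genes. Too few members were measured for more than these counts.

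The member called lower was Lamtor1, which anchors the Ragulator complex to the lysosome. Its reads were 7, 5 and 0 in WT and 0 in each HM library, at least 6.66-fold lower against 3 reads over the HM libraries (edgeR adjusted p = 0.00116; up to 0.448 over the alternatives). WT library 3 was as low as the HM libraries, and DESeq2 did not call Lamtor1. Without WT library 1, and also without WT library 2, it fell below the minimum of reads. All of its 12 WT reads were from the miR-17 seed group, and none from miR-291a-5p. Lamp2, a main glycoprotein of the lysosomal membrane, had 2, 3 and 2 reads in the WT replicates and 4, 5 and 3 in the HM replicates (edgeR adjusted p = 0.960). Clcn3, a chloride-proton exchanger of endosomes, had 2, 0 and 6 and then 0, 1 and 1 (edgeR adjusted p = 0.109). Laptm4a thus had 115 of the WT reads of this group, and the 117 other genes had 61 together.

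The label of the cells was checked by their miRNAs. Hybrids of the miR-290 cluster made 8.14% to 9.78% of each WT library and 4.82% to 5.47% of each HM library. Those of the miR-302 cluster made 26.3% to 29.0% in WT and 51.4% to 53.9% in HM. Both clusters, typical of pluripotent cells, were present in all 6 libraries.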

How the data were processed

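The table that the authors deposited gives 1 entry for each hybrid sequence of a library, with its read counts, unscaled. The authors named the miRNA part with QuagmiR, mapped the target part to 3′ UTRs of coding genes with Bowtie2 and kept pairs predicted by TargetScan. Their treatment of duplicates, the genome build and the use of molecular identifiers were not given in the sources used here, so reads may not be independent molecules. Genotype and replicate came from the sample titles, which call the samples biological replicates.

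Reads were summed per library for Laptm4a and each of its miRNAs. A count of 0 was taken to allow 3 reads, and intervals were exact (Clopper-Pearson, 95%). Features with at least 10 reads were tested with edgeR 4.0.16 (R 4.3.3) by the quasi-likelihood test and Benjamini-Hochberg adjustment over all features. Library sizes were 3p hybrid totals for miRNAs (Laptm4a rows removed from the counts) and totals of both arms for genes. DESeq2 1.42.0 was an alternative. Fragments were joined by shared runs of at least 12 bases, and the 59-nt stretch was built from runs of 14 bases. Pairing was computed with RNAduplex (ViennaRNA 2.7.2). Python 3.11.15, pandas 2.3.3 and matplotlib 3.10.9 were used. The edgeR step was tested on simulated counts with 4-fold changes. It recovered 11 of 24 changed miRNAs (45.8%) and 98 of 200 changed genes (49.0%). Among those with at least 50 expected reads it recovered 9 of 10 miRNAs and 41 of 43 genes. There were 0 false calls among 84 miRNAs and 2 among 336 genes tested. A feature with few reads can thus change without being called.

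Named were Laptm4a, its miRNAs with at least 2 reads or a read in HM, the 5 next targets of its leading miRNA, the 5 genes nearest in level and in makeup, and the list members called or with most reads. Clcn3, Rragd, miR-291b-5p, miR-376b-3p, miR-292a-3p, miR-302a-3p and the miRNAs whose seeds match the joined fragment were named after their values were seen. Laptm4a, the lists and the rules were chosen with earlier results of these data known. The lists were written from general knowledge. Among the targets and sequences these rules name, 1 gene and 1 fragment are not reported here. By a permutation (Monte Carlo) chi-square test over miRNAs, WT library 3 differed more than sampling allows from WT library 2 (p = 0.0005, the smallest possible) and from WT library 1 (p = 0.0120), and WT libraries 1 and 2 were not found to differ (p = 0.320). By the same permutation test HM libraries 1 and 2 were not found to differ (p = 0.372). They shared 5.02% of the sequences of the smaller and were kept apart.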

Additional observations from a re-analysis of the deposited data

How the results depend on the processing

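The libraries held only 1621 to 5341 hybrid reads, so miRNAs or genes with few reads have no order. Laptm4a was lower in HM under every alternative run. The difference of -196.5 per 10000 hybrids became -431.7 with 3p hybrids as the scale and -165.4 with each distinct sequence counted once, and lay between -206.9 and -184.0 with 1 library left out. The leading site held 97.1% of the WT reads with 18 shared bases, and 68.8% with the 2 stretches counted apart, which was chosen after seeing the data (98.5% to 100% with 1 library left out, and 97.1% to 100% for the 5p share). The number of Laptm4a miRNAs called lower elsewhere was 7 to 9 under every alternative and 8 with any 1 library left out. With all hybrids as the scale, miR-130a-3p turned to 0.28 and miR-376b-3p to 0.12. In the lysosome list, the number called was 2 with 3p hybrids as the scale and 0 with DESeq2 (1 at an unadjusted p under 0.05). With 1 library left out it was 0 to 1, 0 being without WT library 1. Without WT library 2 the 1 called was Clcn3, as Lamtor1 then had too few reads. No list member had 30 reads, so that minimum gave no value. Fnip1, tested in the list, had a log2 fold change of 0.11 that turned to -0.89 with 3p hybrids as the scale and ranged from -0.34 (without WT library 3) to 0.66 with 1 library left out. Lamp2 turned from 0.062 to -0.96 with 3p hybrids as the scale, to -0.014 without WT library 1 and to -0.26 without HM library 1, with 0.40 the highest when 1 library was left out. Apart from the scale and from the fewer samples or features tested, the cause of these shifts was not tested. Replicate numbers did not pair the libraries (correlations of deviations from -0.060 to 0.081 over miRNAs and genes). With the replicate number as a block, the Laptm4a difference stayed at -196.5, 8 Laptm4a miRNAs and 1 list gene were called, and no call changed. Summing HM libraries 1 and 2 as 1 sample, chosen after seeing the data, gave -196.4, 8 and 1.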
